A study of Ovis aries with 9 samples.

Results

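Ovine granulosa cells (GCs) kept without glucose were compared with GCs given 8.4 mM glucose, across the genes that carry a symbol in the deposited table of expression values. The comparison used 6 of the 9 libraries of the series. In the CON group (3 libraries) the medium held 0 mM glucose for the last 24 h of culture, and in the LOW group (3 libraries) it held 8.4 mM. GCs of both groups came from ovaries of thin-tailed Han ewes, were pooled over many ovaries and grown with serum, and then went through the same 8 h without glucose or serum before the 24 h treatment. Total RNA without ribosomal RNA was sequenced. The table holds FPKM (fragments per kilobase and per 1e6 fragments) for 39157 genes, of which 14432 carry a symbol. Of these, 10854 passed the filter on low values (FPKM of 0.1 or more in at least 3 of the 6 libraries and a genomic span of at least 300 bases) and 3578 did not. The FPKM given below were scaled so that the libraries share 1 median, and a log2 difference is that of LOW minus CON on the log2(FPKM + 0.1) scale. The labels number the replicates without saying at which step they were separated, so the p-values measure the spread between these libraries, which may be technical.

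GCs surround the oocyte in the follicle. They take up glucose, split it in glycolysis, and pass pyruvate and lactate on to the oocyte, which uses little glucose itself. Inside a cell, sugar phosphates formed from glucose switch on the paired transcription factors MondoA and ChREBP with their partner MLX, and TXNIP and ARRDC4 are the best known genes that these factors turn on. The cell can also build cholesterol and fatty acids from glucose carbon, a route governed by the SREBP factors, and GCs turn cholesterol into steroid hormones.

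The labelled cell type was checked against marker genes. Of 12 granulosa markers, 9 were in the table by symbol. Their summed level was 104 to 122 FPKM in CON and 103 to 112 in LOW, most of it SERPINE2 (42.3 to 70.9), NR5A2 (14.3 to 18.0) and INHA (11.05 to 20.2). The defining markers FOXL2, AMH and CYP19A1 were not found by symbol and were not analysed here, and FSHR, the receptor of follicle-stimulating hormone, was at 0.227 to 0.576 FPKM. CYP11A1, which makes the first steroid from cholesterol, was at 160 to 202 FPKM. The 10 markers of fibroblasts and stroma summed to 2631 to 3149 FPKM in CON and 2885 to 3020 in LOW, led by LUM (1750 to 2287). The 7 markers of smooth muscle and pericytes summed to 2342 to 4015 in CON and 2883 to 3230 in LOW, led by TAGLN and ACTA2. CDH5 and EMCN of endothelium, CD3D and MS4A1 of lymphocytes, and BMP15 and ZP4 of the oocyte were listed at 0 in all 6 libraries, and the theca marker CYP17A1 did not pass 0.421 FPKM. Summed levels in CON and LOW were 16.5 to 21.3 and 17.5 to 19.4 FPKM for leukocyte markers and 13.1 to 21.6 and 13.9 to 17.5 for epithelial markers. They did not pass 2.84 FPKM for theca, 1.01 for endothelium and 1.17 for the oocyte. In these bulk libraries fewer cells of a type and less RNA per cell cannot be told apart.

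The CON libraries differed among themselves more than the LOW libraries did. The SD of log2(FPKM + 0.1) over the 3 libraries of a group had a median of 0.29 in CON and 0.13 in LOW, and it was larger in CON for 78.1% of the 10854 genes. CON replicate 2 lay between the other CON libraries for 71.9% of the genes. Pearson's r across all genes tested, which are not independent of one another, was 0.924 between CON replicates 1 and 3 and 0.971 to 0.972 between LOW libraries. The spread within CON followed the length of the gene in the genome. Among genes of 321 to 8661 bases, the median log2 deviation from the mean of the 6 libraries was -0.21 in CON replicate 1 and 0.31 in CON replicate 3. Among genes of 82834 bases and more it was 0.19 and -0.24. The LOW libraries stayed between -0.084 and 0.067 in all 5 bins of length. Small RNA genes took 52.1, 64.8 and 68.6% of the summed FPKM in the CON libraries and 67.0, 69.4 and 72.1% in LOW (exact permutation p = 0.2, two-sided). The smallest p that 3 against 3 libraries allow is 0.1. By the factors that link the deposited read counts to FPKM, 1 FPKM was worth 57.6 to 71.3 counts on a kilobase in CON and 48.0 to 65.0 in LOW, so genes near 0.1 FPKM rest on few fragments. The part of the marker levels, of the small RNA share and of gene length in the results below was not tested, except that single values are given with the trend over genomic span removed.

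**Figure D1:**
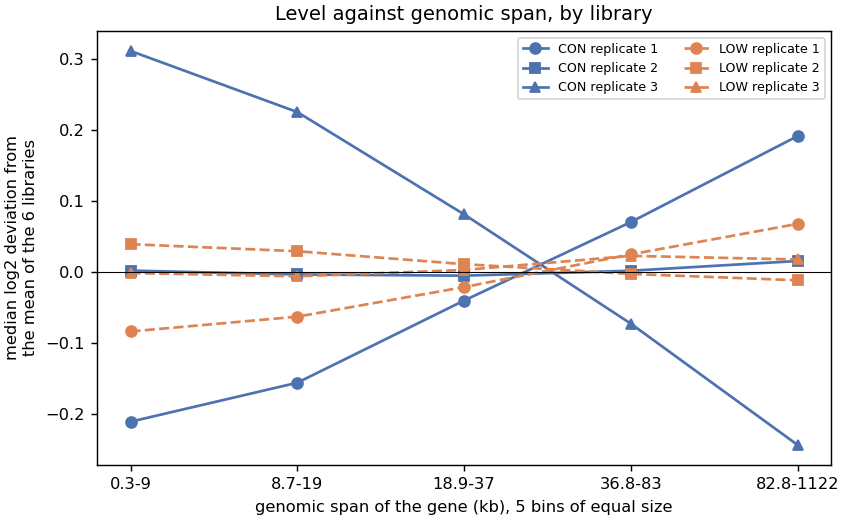
Median log2 deviation of each library from the mean of the 6 libraries (y axis) in 5 equal bins of genomic span in kb (x axis), for genes with a mean of 1 FPKM or more; solid blue lines are CON and dashed orange lines LOW. CON replicates 1 and 3 slope in opposite directions and the other 4 libraries stay near 0.

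No gene with a symbol passed the test between LOW and CON, which required a limma adjusted p under 0.05 and a change of more than 1 on the log2 scale. This is 0.0% of the 10854 tested, and the lowest adjusted p was 0.336, for ARRDC4. Among all 22731 genes tested, 2 passed (0.0088%), both without a symbol, and 413 had an unadjusted limma p under 0.05. Before adjustment, 115 genes with a symbol had a limma p under 0.05, which is 1.06%, whereas 5% of genes would pass that threshold if p-values were evenly spread. Of these 115 genes, 50 were higher in LOW (0.461% of all tested) and 65 were lower (0.599%). With the FPKM as deposited, without scaling of the libraries, 25 were higher and 273 lower. The 3 LOW libraries lay wholly above the 3 CON libraries for 338 genes (3.11%) and wholly below for 387 (3.57%), together 6.68%. With 20 ways to split the libraries, such a separation alone corresponds to an exact permutation p of 0.1, two-sided. The median log2 difference over all genes with a symbol was -0.0059, with quartiles of -0.11 and 0.10, and 48.3% of them were higher in LOW. The counts by direction given for gene lists below stand against this share. After ARRDC4, COPS8 and TXNIP (limma adjusted p of 0.336 to 0.392), every other gene with a symbol had an adjusted p of 1.00. The values that follow are therefore differences between these libraries, none of which passed the adjusted test at the gene level unless this is stated. An unadjusted p under 0.05 is used below to point to single genes and is that of limma.

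Targets of the glucose sensor were among the genes with the smallest p-values. TXNIP (1:98336652-98340541), an inhibitor of glucose uptake and of thioredoxin, was at 68.3, 88.6 and 105 FPKM in CON replicates 1, 2 and 3 and at 212, 225 and 232 FPKM in LOW. ARRDC4 (18:7884509-7890714), a related arrestin that also lowers glucose uptake, was at 15.8, 14.0 and 12.3 FPKM in CON and 34.8, 29.9 and 30.3 in LOW. All LOW libraries lay above all CON libraries in both genes. TXNIP was 2.59-fold higher in LOW (log2 difference 1.38, SE 0.18, limma adjusted p = 0.392) and ARRDC4 2.25-fold higher (1.17, SE 0.14, adjusted p = 0.336). Each has a single transcript in the table, TXNIP-201 and ARRDC4-201, which differed by 1.39 and 1.19 on the log2 scale. TXNIP passed the adjusted test without CON replicate 3 (limma adjusted p = 0.0301) and after each library's trend over genomic span was removed (limma adjusted p = 0.0135), an alternative chosen after the data were seen. Over its 15 alternatives the adjusted p of TXNIP ran from 0.0135 to 1.00 and its log2 difference from 1.21 to 1.53.

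The remaining targets of the sensor did not form a single block. KLF10 (9:74400025-74407403), a transcription factor that damps glycolytic and fat-making genes, was at 4.64, 4.65 and 4.45 FPKM in CON and 7.70, 8.45 and 6.95 in LOW (log2 difference 0.73, SE 0.13). KLF11, its close relative, was at 0.933, 0.978 and 0.555 FPKM in CON and 1.498, 1.65 and 1.46 in LOW (0.86, SE 0.26). The groups did not overlap in either gene. The list of 13 genes tested holds the sensor subunits as well as targets. Of these 13, 8 were higher and 5 lower in LOW, the 5 being ARRDC1, TKFC and the subunits MLX, MLXIP and MLXIPL. Their median log2 difference of 0.092 was -0.016 without LOW replicate 3, 0.047 without CON replicate 1 and 0.19 without CON replicate 3. TXNIP, ARRDC4, KLF10 and KLF11 were the 4 with an unadjusted p under 0.05, against 0.461% higher at that threshold among all genes with a symbol. There were also 4 such genes on the higher side under each of the 15 alternatives. The subunits MLX, MLXIP (MondoA) and MLXIPL (ChREBP) had log2 differences of -0.13, -0.12 and -0.29 with overlapping groups. MLXIPL was at 0.23 FPKM or less in every library, against 6.58 to 13.6 FPKM for MLXIP. ARRDC2, ARRDC3 and HBP1 overlapped between the groups as well.

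**Figure D2:**
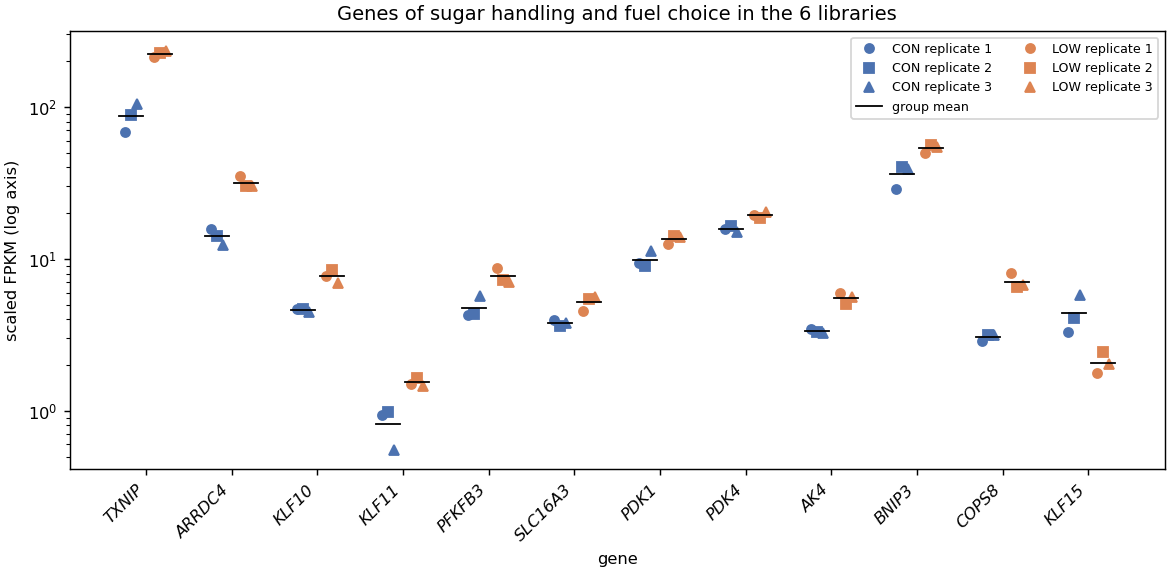
Scaled FPKM on a log axis (y axis) of 12 genes (x axis) in each of the 3 CON and 3 LOW libraries, with the group means as black lines. TXNIP stands at 68.3 to 105 in CON and 212 to 232 in LOW, and KLF15 is the gene shown that is lower in LOW.

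Among the enzymes of glycolysis, PFKFB3 had the largest difference. It makes fructose 2,6-bisphosphate, the main activator of phosphofructokinase, and it was at 4.28, 4.35 and 5.68 FPKM in CON and 8.70, 7.28 and 7.06 in LOW. The groups did not overlap (log2 difference 0.68, SE 0.17). SLC16A3, the lactate exporter MCT4, was at 3.93, 3.59 and 3.77 FPKM in CON and 4.50, 5.46 and 5.60 in LOW (0.45, SE 0.15). These were the 2 with an unadjusted p under 0.05 of 20 glycolysis genes tested, against 0.461% higher at that threshold among all genes with a symbol. Of the 20 genes, 14 were higher and 6 lower in LOW (median 0.096). The abundant enzymes differed little. GAPDH was at 645 to 867 FPKM in CON and 699.7 to 732 in LOW, and PKM at 244 to 410 and 303 to 356. HK2, which starts glycolysis, ranged from 1.49 to 4.87 FPKM in CON around a LOW range of 1.86 to 2.46.

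Glucose carriers were close to level. SLC2A1 (GLUT1), the basal carrier of most cells, was at 43.8, 42.2 and 46.4 FPKM in CON and 37.2, 40.0 and 40.6 in LOW. The LOW libraries lay below the CON libraries, with a log2 difference of -0.17 (SE 0.11). SLC2A3 (GLUT3) was at 0.553 to 1.41 FPKM in CON and 1.17 to 1.48 in LOW, and SLC2A4 (GLUT4) did not pass 0.229 FPKM. Of 10 carriers tested, 6 were higher and 4 lower, and 0 had an unadjusted p under 0.05. In the pentose phosphate pathway, which makes NADPH and ribose, 4 of 5 genes were lower in LOW. RPIA, the ribose 5-phosphate isomerase, was at 6.02, 4.80 and 6.39 FPKM in CON and 4.47, 4.20 and 4.31 in LOW (-0.39, SE 0.16).

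At the entry of pyruvate into mitochondria, 2 kinases that switch pyruvate dehydrogenase off were higher in LOW. PDK1 was at 9.39, 8.93 and 11.2 FPKM in CON and 12.5, 14.2 and 14.0 in LOW (log2 difference 0.46, SE 0.14). PDK4 was at 15.8, 16.5 and 15.0 FPKM in CON and 19.5, 18.6 and 20.2 in LOW (0.30, SE 0.11). The groups did not overlap in PDK1 or PDK4, and both had an unadjusted p under 0.05. The other kinases PDK2 and PDK3 had differences of 0.057 and 0.036 with overlapping groups. The enzymes of the cycle itself were level: over 23 genes of pyruvate entry and the TCA cycle the median was 0.0084, with 13 higher and 10 lower. ACSS1, which makes acetyl-CoA from acetate in mitochondria, was at 11.3, 9.23 and 9.18 FPKM in CON and 6.21, 7.10 and 5.39 in LOW (-0.66, SE 0.16).

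Among genes known from low oxygen, BNIP3, a mitophagy receptor, was at 28.9, 40.0 and 39.1 FPKM in CON and 49.6, 56.2 and 54.4 in LOW (log2 difference 0.58, SE 0.16). AK4, a mitochondrial adenylate kinase that is on none of the lists, was at 3.44, 3.32 and 3.25 FPKM in CON and 6.00, 5.06 and 5.61 in LOW (0.71, SE 0.14). The groups did not overlap in BNIP3 or AK4, and AK4 was named by a rule that required this. Of 15 hypoxia genes tested, 12 were higher in LOW, 4 of them with no overlap between the groups (against 3.11% wholly above among all genes with a symbol) and 1, BNIP3, with an unadjusted p under 0.05. Among the rest, HIF1A itself was at 104 to 130 FPKM in CON and 123 to 126 in LOW, and VEGFA at 2.86 to 3.16 and 2.63 to 3.35. The median of the list was 0.071. With the FPKM as deposited it was -0.034, where the median over all genes with a symbol was -0.11.

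The genes of cholesterol and fatty acid synthesis lay lower in LOW. Of 24 members described, all tested, 22 were lower and 2 higher, the median log2 difference was -0.19 against -0.0059 over all genes with a symbol, and the groups did not overlap in 9 of them, all lower in LOW (against 3.57% wholly below among all genes with a symbol). CYP51A1, which takes the first methyl group off lanosterol, was at 28.6, 26.3 and 27.9 FPKM in CON and 22.0, 20.8 and 22.0 in LOW (-0.35, SE 0.11). SCD, which puts the double bond into stearate, was at 30.1, 26.5 and 27.3 FPKM in CON and 21.9, 22.6 and 21.0 in LOW (-0.36, SE 0.11). CYP51A1 and SCD each had an unadjusted p under 0.05 and groups that did not overlap, and the CYP51A1 level was 1.27-fold higher in CON.

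The other 3 members with an unadjusted p under 0.05 were SQLE (-0.30), FASN (-0.37) and DHCR7 (-0.48), which catalyse an early oxidation of squalene, the building of palmitate and the last step to cholesterol. At that threshold 0.599% of all genes with a symbol were lower in LOW. HMGCS1, at the start of the mevalonate route, was at 114, 124 and 154 FPKM in CON and 105, 103 and 102 in LOW (-0.33, SE 0.14). The regulators SREBF1, SREBF2 and SCAP had differences of -0.043, -0.021 and -0.092 with overlapping groups, and INSIG1, an SREBP target, was at 8.70 to 13.8 FPKM in CON and 7.84 to 9.51 in LOW. Over the 15 alternatives, 19 to 24 of the members were lower in LOW and 1 to 12 had an unadjusted p under 0.05, fewest without LOW replicate 1, without LOW replicate 3 or with no trend in the spread, and most with the FPKM as deposited.

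**Figure D3:**
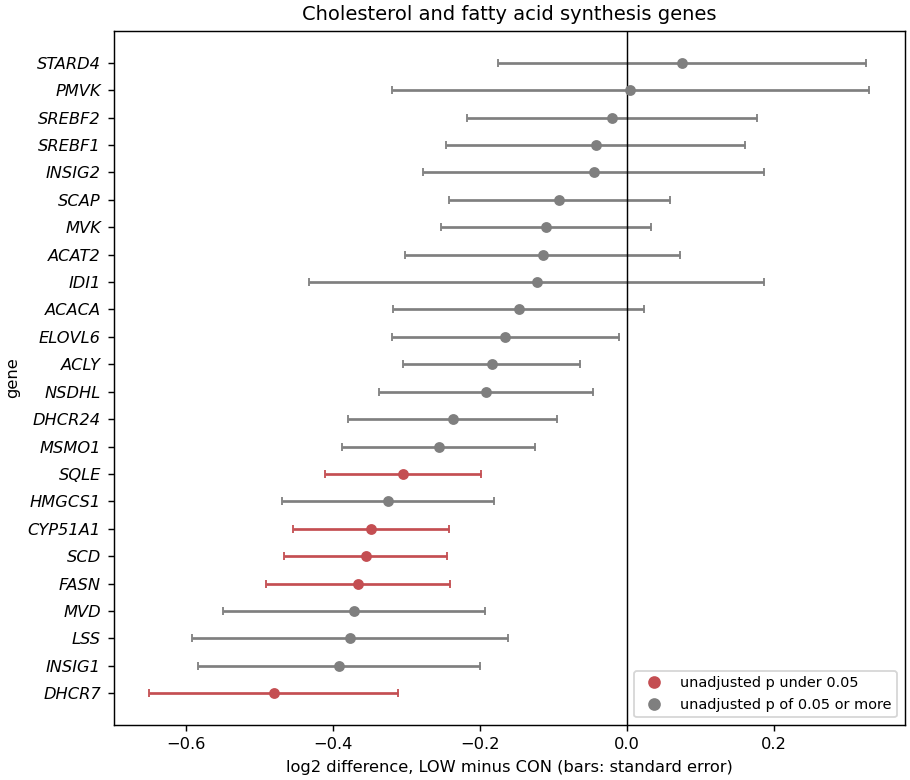
Log2 difference of LOW minus CON with its standard error (x axis) for 24 tested genes of cholesterol and fatty acid synthesis (y axis); red points have an unadjusted limma p under 0.05. The 5 red genes lie between -0.48 and -0.30, and STARD4 and PMVK are the 2 above 0.

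Steroid synthesis followed the same side with smaller differences. Of 14 genes described, 13 were lower in LOW (median -0.11), and 0 had an unadjusted p under 0.05. CYP11A1 was at 163, 174 and 202 FPKM in CON and 159.7, 169 and 159.6 in LOW (log2 difference -0.14, SE 0.13). STAR, which carries cholesterol into mitochondria, was at 6.17, 6.72 and 7.79 FPKM in CON and 6.05, 7.02 and 6.21 in LOW, with overlapping groups. The exception was HSD17B1, which makes estradiol from estrone, at 0.269 to 0.375 FPKM in CON and 0.461 to 0.575 in LOW (0.56, SE 0.27). Without CON replicate 3, 7 of the 14 genes were lower and 7 higher, with a median of -0.021.

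Genes of granulosa identity overlapped between the groups, except HSD17B1, given above. Of 15 tested, 7 were higher and 8 lower, and 0 had an unadjusted p under 0.05. INHA, the inhibin alpha subunit, was at 11.05, 13.4 and 20.2 FPKM in CON and 11.9, 14.6 and 14.6 in LOW, and INHBA, the beta A subunit of inhibin and activin, was at 4.14 to 5.09 and 4.67 to 4.92. In the list of inhibin, activin and BMP genes (30 tested, median 0.022) TGFBR1, a type I receptor, had the smallest p, at 12.8 to 16.8 FPKM in CON and 18.0 to 19.4 in LOW (log2 difference 0.28, SE 0.14). The genes of ovulation and cumulus expansion had the highest median of all lists, 0.18 over 12 genes of which 10 were higher, but no member had groups that did not overlap. This median was 0.095 without CON replicate 2 and 0.069 with a pseudocount of 1, and without CON replicate 3 it was 0.15, below the 0.20 of the mitosis list. In the IGF system 9 of 14 genes were lower in LOW. IGFBP3, a carrier of IGF in fluid, was at 2.08, 1.49 and 2.23 FPKM in CON and 1.27, 1.32 and 0.815 in LOW (-0.73, SE 0.26, unadjusted p under 0.05). IGFBP2 was far more abundant, at 709 to 1432 FPKM in CON and 926 to 1073 in LOW.

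Apoptosis was the question that the study put to these cells, and its genes lay close to level. Of 24 members of the BCL2 and caspase list, 10 were higher and 14 lower in LOW, with a median of -0.049, which was 0.015 without CON replicate 3. BCL2, which protects cells from death, was at 0.681, 0.422 and 0.622 FPKM in CON and 0.824, 0.973 and 0.836 in LOW. The groups did not overlap, with a log2 difference of 0.55 (SE 0.26). The gene value includes the antisense transcript BCL2-AS1, at 0 to 0.0958 FPKM in CON and 0, 0.297 and 0.191 in LOW. BCL2-201 itself was at 0.653, 0.328 and 0.6003 FPKM in CON and 0.838, 0.669 and 0.653 in LOW. The one member with an unadjusted p under 0.05 was BCL2A1, another protective gene, which was near the limit of the filter at 0.123 to 0.187 FPKM in CON and 0 to 0.0225 in LOW. BCL2A1 passed the filter only through the CON libraries, so its p-value is conditional on their higher level. BAX, which opens the outer mitochondrial membrane, was at 8.42, 7.62 and 9.58 FPKM in CON and 7.36, 10.4 and 6.83 in LOW. BCL9, a Wnt coactivator, was at 4.81 to 12.9 FPKM in CON and 7.23 to 8.77 in LOW. For BAX and BCL9 the groups overlapped and the sign changed under at least 1 alternative.

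Genes of the responses to a lack of nutrients lay close to level. Among 22 targets of ATF4, the factor that answers amino acid and energy shortage, 12 were higher and 10 lower (median 0.013), and 0 had an unadjusted p under 0.05. ASNS, asparagine synthetase, averaged 15.3 ± 2.41 FPKM (SD, n = 3) in CON and 16.6 ± 0.284 in LOW. DDIT3 (CHOP) averaged 2.21 ± 0.718 and 1.80 ± 0.776 FPKM, and TRIB3 2.34 ± 0.735 and 2.48 ± 0.0523. HSPA5 (BiP), the main chaperone of the endoplasmic reticulum, averaged 225 ± 16.5 FPKM in CON and 224 ± 2.56 in LOW. Its list of 20 chaperone and unfolded protein response genes had a median of -0.027. The lists of AMPK and mTORC1 genes (17 tested), NF-kappa B and TNF (17), immediate early genes (15), antioxidant genes (25), heat shock genes (11), glutamine use (9), hexosamine and N-glycan precursors (19) and fatty acid oxidation (19) each had 0 members with an unadjusted p under 0.05, and their medians lay between -0.059 and 0.051.

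Single members of these lists are given for their values. DUSP1, a phosphatase of MAP kinases, was at 73.8, 67.0 and 78.9 FPKM in CON and 57.9, 63.0 and 62.0 in LOW (log2 difference -0.26). CPT1A, which brings fatty acids into mitochondria, was at 14.9, 14.5 and 14.9 FPKM in CON and 17.6, 17.3 and 17.0 in LOW (0.23). The groups did not overlap in DUSP1 or CPT1A. HSPA1A, an inducible heat shock protein, was at 7.55, 9.93 and 13.9 FPKM in CON and 8.31, 0.0986 and 9.16 in LOW, so that its log2 difference of -2.04 rests on LOW replicate 2 and is -0.21 without it. CTSL, a lysosomal protease, was the one member of 26 autophagy and lysosome genes with an unadjusted p under 0.05 (0.34, SE 0.14).

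Of 18 mitosis genes tested, 16 were higher (median 0.13), and of 27 DNA replication genes 19 were higher (median 0.046). Over all genes with a symbol 48.3% were higher in LOW. The DNA replication median was 0.0080 without CON replicate 1 and 0.18 without CON replicate 3. With the FPKM as deposited it was -0.058, with 17 genes lower and 10 higher. The median over all genes with a symbol was -0.11 under that setting. RRM2, the subunit of ribonucleotide reductase that cycles with DNA synthesis, was at 11.6, 11.3 and 10.4 FPKM in CON and 13.9, 14.4 and 14.8 in LOW (log2 difference 0.37, SE 0.11). TOP2A, which untangles chromosomes, was at 11.4, 11.99 and 12.8 FPKM in CON and 14.3, 14.3 and 15.4 in LOW (0.28, SE 0.11). CKS2, a partner of the cell cycle kinases, went the other way at 6.89, 7.39 and 8.49 FPKM in CON and 6.00, 5.47 and 4.82 in LOW (-0.48, SE 0.15). RRM2, TOP2A and CKS2 had groups that did not overlap, and they were the 3 genes of the mitosis and DNA replication lists with an unadjusted p under 0.05. Among all genes with a symbol, 0.461% were higher and 0.599% lower at that threshold. RRM2 and CKS2 each kept such a p under 13 of 15 alternatives, and TOP2A under 5. The CKS2 value includes CKS2-201, at 1.90 FPKM in CON replicate 1 and listed at 0 elsewhere. The assembled CKS2 transcript TCONS_00123205 overlapped between the groups, at 5.06 to 8.20 FPKM in CON and 4.86 to 6.10 in LOW. MKI67 was not found by symbol. Of 19 matrix genes 17 were lower, with a median of -0.038, but 11 were lower without CON replicate 1 and 12 without LOW replicate 3. COL3A1 was at 339 to 346 FPKM in CON and 323 to 343 in LOW.

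**Figure D4:**
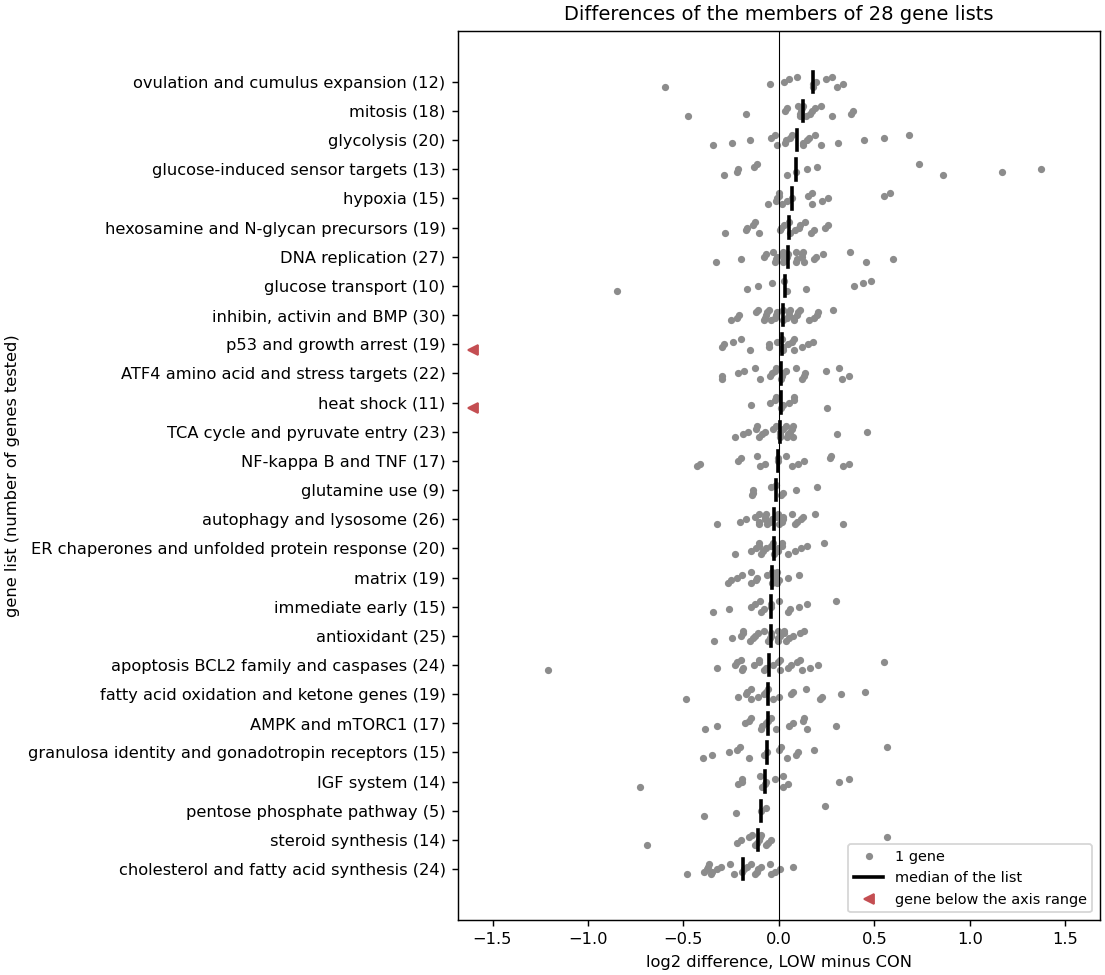
Log2 difference of LOW minus CON (x axis) of each tested member (grey points) of 28 gene lists (y axis, number tested in brackets), with the list median as a black bar and BTG1 and HSPA1A as red triangles at the left edge. The medians run from -0.19 (cholesterol and fatty acid synthesis) to 0.18 (ovulation and cumulus expansion).

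Over all 28 lists, 489 different genes were tested. Of these, 12 were higher and 10 lower with an unadjusted p under 0.05, which is 4.50% against 1.06% of all genes with a symbol, and 0 passed the adjusted test. The lists were chosen with earlier results of these data known, so the comparison of these shares is a description.

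Outside the lists, the genes higher in LOW with the smallest p-values had mixed roles. They were taken among genes with a mean of 1 FPKM or more and no overlap between the groups. COPS8, a subunit of the COP9 signalosome that controls protein degradation, was at 2.87, 3.13 and 3.17 FPKM in CON and 8.09, 6.49 and 6.67 in LOW (log2 difference 1.18, SE 0.15, limma adjusted p = 0.392). Its assembled transcripts TCONS_00014415 and TCONS_00014416 did not move together: the first was at 7.39 FPKM in LOW replicate 1 and listed at 0 in LOW replicates 2 and 3, where the second was at 6.11 and 6.56. SKA2, part of the complex that ties chromosomes to the spindle, was at 2.20, 1.73 and 1.57 FPKM in CON and 3.19, 3.39 and 2.61 in LOW (0.72, SE 0.20), although its annotated transcript SKA2-201 was listed at 0 in all libraries. The zinc finger gene ZFP2 differed by 0.51 (SE 0.14) and TMEM134, a membrane protein, by 0.66 (SE 0.18). The annotated transcript TMEM134-201 was listed at 0 in all libraries. The assembled TMEM134 transcript TCONS_00161912 was at 8.36, 8.58 and 0.796 FPKM in LOW, and TCONS_00161914 at 0, 0.114 and 9.72. In COPS8, SKA2, ZFP2 and TMEM134 the groups did not overlap, as the rule that named them required.

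The 10 genes named as lower in LOW included metabolic and signalling genes. By the naming rule, they had the smallest p-values among genes with a mean of 1 FPKM or more and no overlap between the groups. KLF15 (19:59765042-59766117), a transcription factor of fasting metabolism, was at 3.31, 4.07 and 5.78 FPKM in CON and 1.78, 2.42 and 2.03 in LOW (log2 difference -1.02, SE 0.24). RAB4A, a GTPase of endosome recycling, was at 6.59, 5.88 and 6.54 FPKM in CON and 4.10, 4.06 and 3.88 in LOW (-0.64, SE 0.13). The lower RAB4A value lay in RAB4A-202, at 3.44, 2.76 and 4.05 FPKM in CON and 0.712, 0.622 and 0.516 in LOW. Its assembled transcript TCONS_00180270 was at 2.27 to 3.22 FPKM in CON and 3.39 to 3.45 in LOW. BCL3, a nuclear partner of NF-kappa B, was at 1.4998, 1.80 and 1.52 FPKM in CON and 0.911, 0.965 and 0.898 in LOW (-0.73, SE 0.19). The BCL3 value includes the antisense transcript BCL3-AS1, at 0.568 to 1.05 FPKM in CON and 0.371 to 0.543 in LOW, and BCL3-201 itself overlapped between the groups at 0.0514 to 0.421 and 0.152 to 0.254. In KLF15, RAB4A and BCL3 every LOW library lay below every CON library, as the naming rule required. The same rule named the pyridoxal phosphatase PDXP (-0.74), the ribosome assembly factor BRIX1 (-0.80), the deubiquitinase USP20 (-0.56) and C11orf58 (-0.78). ACSS1, given above, and GANAB and RTN4, given below, complete the 10.

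In some genes the transcripts differed in opposite directions. GANAB (21:40349673-40366153), the glucosidase II subunit that trims glucose from new glycoproteins, was at 48.8, 43.1 and 44.5 FPKM in CON and 28.1, 26.4 and 30.0 in LOW (log2 difference -0.69, SE 0.11). Its transcript GANAB-202 was at 42.8, 37.4 and 38.5 FPKM in CON and 5.63, 5.64 and 17.2 in LOW, whereas GANAB-201 was at 6.58, 5.95 and 4.52 in CON and 23.0, 20.5 and 13.1 in LOW. The lower gene value thus combined a lower level of GANAB-202 with a higher level of GANAB-201, neither of which passed the adjusted test (limma adjusted p = 0.609 and 0.301). RTN4, a protein that shapes the endoplasmic reticulum, was at 88.3, 78.8 and 100.02 FPKM in CON and 26.8, 71.6 and 26.3 in LOW. In LOW replicate 2 the assembled transcript TCONS_00195103 was at 52.8 FPKM, and it was listed at 0 in the other LOW libraries. In CON it was at 61.0, 0 and 0 FPKM, and TCONS_00195105, of the same genomic interval, was at 0, 56.8 and 88.1. Assembled transcripts of 1 interval thus traded places between libraries of the same group. RTN4-201 was at 6.66 to 13.6 FPKM in CON and 18.2 to 26.9 in LOW.

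BTG1, an antiproliferative gene, had the lowest log2 difference of the p53 and growth arrest list (-2.48, SE 0.80), in which 10 of 19 genes were higher and 9 lower with a median of 0.017. It was at 13.8, 129.7 and 115 FPKM in CON and 11.8, 11.8 and 8.46 in LOW, so that 1 CON library stood with the LOW libraries. The difference lay in BTG1-201, a transcript of 369 bases in the genome, at 0.0625, 119.9 and 104 FPKM in CON and 0.0756 to 0.109 in LOW. The long assembled transcript TCONS_00213151 was at 6.96 to 10.1 FPKM in CON and 8.12 to 10.9 in LOW. Without CON replicate 1 BTG1 passed the adjusted test (limma adjusted p = 0.00567, log2 difference -3.52); over its alternatives the adjusted p ran from 0.00567 to 1.00.

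**Figure D5:**
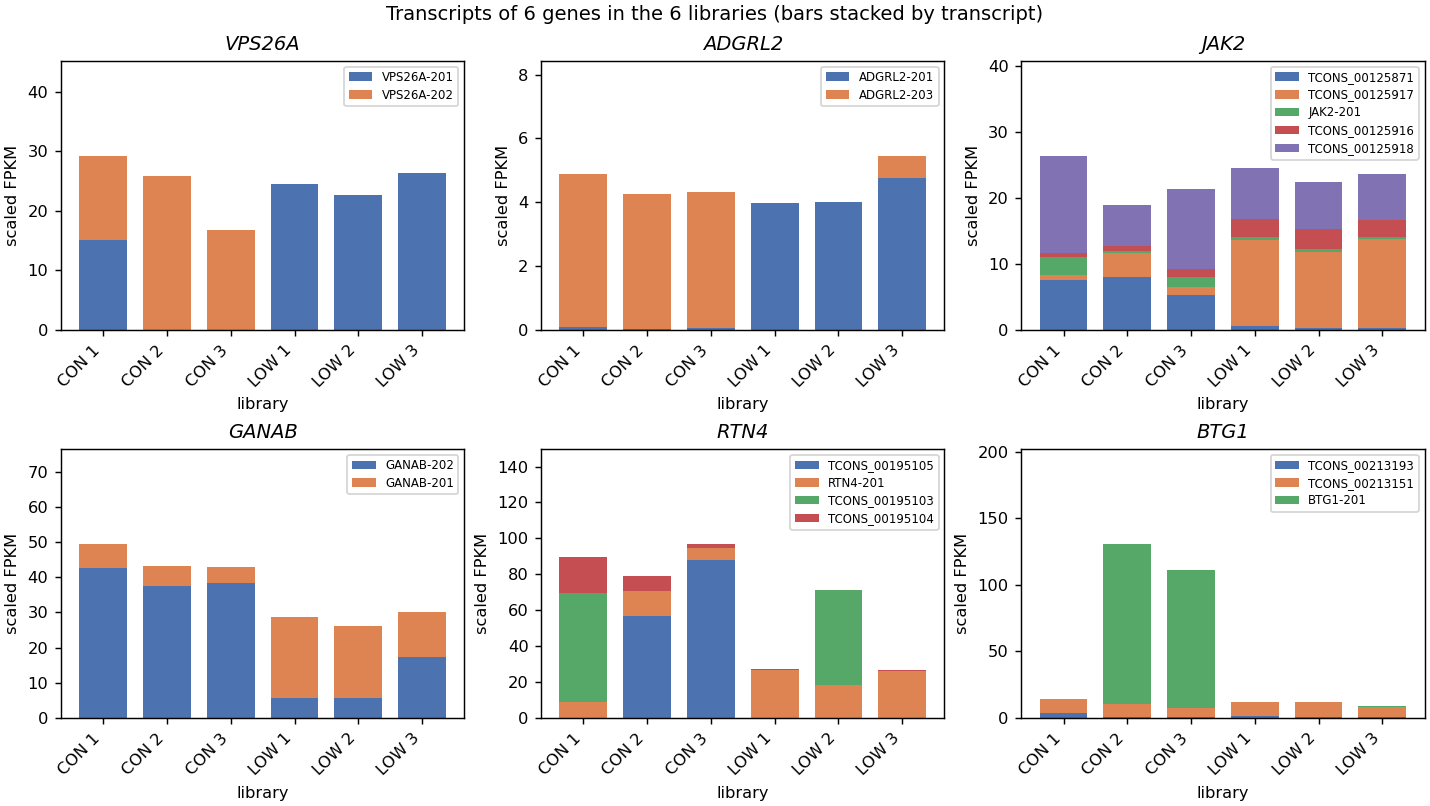
Scaled FPKM of the transcripts of 6 genes, stacked (y axis), in each of the 6 libraries (x axis). In VPS26A, ADGRL2 and JAK2 transcripts differ in opposite directions while the gene total keeps a similar height; in GANAB the total is lower in LOW, and in RTN4 and BTG1 it is high in 4 libraries and in 2 libraries.

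At the transcript level 13 of 35863 transcripts passed the adjusted test (0.0362%), 7 of them from genes with a symbol, and 1016 had an unadjusted p under 0.05. Most of the 13 were at or near 0 in every library of 1 group. They passed the filter only through the 3 libraries of the other group, so the separation of the groups was a condition of being tested. With 1 library left out 1 to 9 transcripts passed: 1 without CON replicate 2, 2 without LOW replicate 2, and 7 to 9 without each of the other libraries. A transcript at 0 in 1 group fell below the filter once a library of the other group was left out. Part of the losses was thus fixed by the filter, and these counts do not measure the weight of single libraries alone. VPS26A encodes a subunit of the retromer, which returns receptors from endosomes. VPS26A-202 was at 14.0, 25.8 and 16.7 FPKM in CON and listed at 0 in all LOW libraries (limma adjusted p = 0.00226), while VPS26A-201 was at 15.1, 0.00545 and 0 FPKM in CON and 24.4, 22.6 and 26.3 in LOW (limma adjusted p = 1.00). CON replicate 1 thus held both transcripts. The gene as a whole was at 17.3 to 28.8 FPKM in CON and 22.7 to 26.0 in LOW. ADGRL2, a latrophilin receptor, had ADGRL2-201 at 0.00816 to 0.0994 FPKM in CON and 3.99, 4.01 and 4.76 in LOW (log2 difference 4.86, limma adjusted p = 0.0121), and ADGRL2-203 at 4.77, 4.25 and 4.27 FPKM in CON and 0, 0 and 0.677 in LOW (limma adjusted p = 0.527). Its gene value was 4.23 to 4.82 FPKM in CON and 3.92 to 5.39 in LOW.

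JAK2, the kinase of cytokine and growth hormone receptors, also had transcripts that differed in opposite directions. TCONS_00125871 fell from 7.61, 8.00 and 5.21 FPKM in CON to 0.538, 0.265 and 0.313 in LOW (log2 difference -3.92, limma adjusted p = 0.0216), and TCONS_00125917 was at 0.757, 3.70 and 1.23 FPKM in CON and 13.1, 11.5 and 13.5 in LOW (limma adjusted p = 0.517). The JAK2 gene value was 18.8 to 26.0 FPKM in CON and 22.6 to 24.1 in LOW. PARP10, NUDT16, KCTD5 and the transcript BOK-OT1 at the BOK locus make up the rest of the 7. TCONS_00283398 of PARP10 was listed at 0 in CON and at 3.79, 5.47 and 4.18 FPKM in LOW, and TCONS_00029419 of NUDT16 was at 4.56, 4.34 and 7.61 FPKM in CON and listed at 0 in LOW. At the level of the gene, the groups overlapped for VPS26A, ADGRL2, JAK2, PARP10, NUDT16 and BOK, and KCTD5 was at 8.29 to 11.3 FPKM in CON and 7.29 to 8.29 in LOW.

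Of the 2 genes that passed the adjusted test, neither carries a symbol. ENSOARG00000012662 (16:44722687-44724848) was listed at 0 in the 3 CON libraries and at 2.52, 2.03 and 2.44 FPKM in LOW (limma adjusted p = 0.00954). The assembled locus XLOC_077652 (17:17003415-17018282) rose from 1.18, 1.44 and 1.06 FPKM in CON to 7.45, 8.31 and 7.77 in LOW (log2 difference 2.59, limma adjusted p = 0.0116). Both passed with any 1 CON library left out. ENSOARG00000012662 passed the filter only through the 3 LOW libraries, so without any 1 of them it was not tested. For this gene the separation of the groups was thus a condition of being tested. XLOC_077652 did not pass with any 1 LOW library left out or with no trend in the spread. The genome build of these coordinates is not given in the sources used here.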

How the data were processed

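RNA-seq libraries of ovine GCs were compared between the CON group (0 mM glucose) and the LOW group (8.4 mM), 3 libraries each, as grouped by the labels. The HIGH libraries entered 1 alternative only. The authors used Hisat2 for alignment and Stringtie for assembly after filtering the reads, and deposited FPKM for genes and for transcripts. The submitters' processing notes also list HTSeq 0.6.0, TopHat, TopHat2 and STAR 2.5.1b. The deposited tables of read counts were checked against FPKM. In each library, 100% of the values examined (500 or more, single transcripts) lay within 3% of FPKM times the genomic span, introns included, times 1 factor, so these deposited values are called a score here and served for nothing but these factors. DESeq2 and edgeR, the count tests, were therefore not run. The genome build is not given in the sources used here. The tables have 0 columns without a sample.

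In the transcript table, the deposited FPKM of Ensembl genes without a symbol are on a TPM-like scale, relative to the total of the library, and were scaled back; in the gene table this step had nothing to correct, which departs from the design. Scaling made the libraries equal in the median over features with FPKM of 1 or more in all 6 libraries (factors 0.896 to 1.06). limma (version 3.58.1, R 4.3.3) was fitted on log2(FPKM + 0.1) over all features passing the filter, with a trend in the spread and Benjamini-Hochberg adjustment over all of them. The script was tested on simulated data. Library summaries were compared by exact permutation tests. Tables were made with Python 3.11.15, pandas 2.3.3 and numpy 2.4.6, and figures with matplotlib 3.10.9.

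Gene lists (28) and markers were written from general knowledge, and members and lists were chosen with earlier results of these data known. Genes named were, by rule, those called, the 10 higher and 10 lower in LOW with the smallest p among those with a mean of 1 FPKM or more and no overlap between groups, 24 fixed genes, and the 2 members of each list with the smallest p. Other genes named belong to those lists or to counts of few genes, or are given under other observations, and were chosen after their values were seen. Some members of the lists and of the fixed genes are not reported here and are left out of the counts and medians of the lists, while the test ran over the whole table. CYP19A1, LHCGR and MKI67 were not found by symbol. Reads of overlapping genes and of near-identical copies cannot be told apart in these values. Alternatives were no filter, a filter at 1 FPKM in 3 libraries, a pseudocount raised to 1, FPKM as deposited, upper quartile scaling, all 9 libraries in the estimate of the spread, the replicate number as a block, no trend, and each library left out. The removal of each library's trend over genomic span (lowess, fraction 0.3) was added after the data were seen.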

Additional observations from a re-analysis of the deposited data

How the results depend on the processing

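Of 1261 values of the 85 named genes under the 15 alternatives, 1241 kept their sign and their side of the adjusted threshold, 17 changed sign and 3 passed the threshold. The 3 were TXNIP without CON replicate 3 and after removal of the trend over genomic span (1.404), and BTG1 without CON replicate 1. With the FPKM as deposited the sign changed for INHBA (-0.060), and after removal of the trend over span HSPA5 (0.024) and BCL9 (0.022). With each library left out in turn, the log2 difference ran from 1.21 to 1.53 for TXNIP, -3.52 to -1.91 for BTG1, -0.75 to 0.068 for HK2, -0.029 to 0.36 for TRIB3, -0.059 to 0.053 for HSPA5, -0.17 to 0.0020 for STAR, -0.26 to 0.17 for INHA, -0.035 to 0.11 for INHBA, -0.37 to 0.32 for BCL9 and -0.26 to 0.041 for BAX.

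Genes called numbered 2, and 1 with no trend in the spread; leaving out each library gave 0 to 10, the 10 without CON replicate 3 and 0 without LOW replicate 1 or LOW replicate 3. Genes with a symbol called numbered 0, 1 after removal of the trend over span, and 0 to 1 with a library left out: TXNIP without CON replicate 3, BTG1 without CON replicate 1 and UBALD2 without CON replicate 2. With the FPKM as deposited, the median log2 difference over the genes with a symbol was -0.11, and 25 genes with a symbol were higher and 273 lower at an unadjusted p under 0.05, in place of 50 and 65. With no filter 101 were lower. With a library left out, 29 to 262 were higher and 40 to 237 lower, the most in each direction without CON replicate 3. Transcripts called numbered 8 with a pseudocount of 1, 5 with FPKM of 1 in 3 libraries, 8 with no filter and 27 with no trend, and 1 to 9 with a library left out. Of genes with a symbol there were 4, 4 and 13 called transcripts with FPKM of 1 in 3 libraries, no filter and no trend, and 1 to 7 with a library left out. The fits with a library left out kept the filter of 3 libraries. Features at 0 in 1 group were therefore not tested when a library of the other group was left out. The cause of the shifts was otherwise not tested.

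The medians of 18 lists moved by more than the spread between libraries with the FPKM as deposited: glucose transport (-0.058), glycolysis (-0.0054), hexosamine and N-glycan precursors (-0.053), TCA cycle and pyruvate entry (-0.096), ER chaperones (-0.13), AMPK and mTORC1 (-0.16), apoptosis (-0.15), p53 and growth arrest (-0.088), NF-kappa B and TNF (-0.11), immediate early (-0.15), mitosis (0.021), cholesterol and fatty acid synthesis (-0.29), inhibin, activin and BMP (-0.082), IGF system (-0.18), hypoxia (-0.034), autophagy and lysosome (-0.13), heat shock (-0.092) and matrix (-0.14). After removal of the trend over span the inhibin, activin and BMP median was -0.0042. With a library left out, medians ran from 0.028 to 0.16 for glucose transport, -0.059 to 0.077 for the TCA cycle, -0.18 to 0.13 for fatty acid oxidation, -0.087 to 0.097 for glutamine use, -0.12 to 0.056 for NF-kappa B, -0.056 to 0.015 for apoptosis, -0.27 to -0.20 for cholesterol and fatty acid synthesis, -0.0067 to 0.043 for inhibin, activin and BMP, -0.15 to -0.063 for the IGF system, 0.031 to 0.18 for hypoxia and -0.17 to -0.026 for matrix.

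CON and LOW share replicate numbers, and the fit with the replicate number as a block called 0 genes, 0 transcripts and 0 transcripts of genes with a symbol, with 44 genes higher and 57 lower at an unadjusted p under 0.05. The numbers were not taken as pairs. Deviations from the group means correlated at 0.29, 0.0095 and 0.12 for equal numbers 1, 2 and 3. LOW replicates 1 and 3 correlated best with the CON library of equal number, and LOW replicate 2 with CON replicate 3 (0.17). These correlations do not settle whether the libraries were paired. DESeq2 and edgeR were not run, since the deposited counts are rescaled FPKM.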

Other observations

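Some genes outside the lists, chosen after their values were seen, also had groups that did not overlap, an unadjusted limma p under 0.05 and no call in the adjusted test. FGF2, a growth factor that GCs respond to, was at 34.7, 34.2 and 31.7 FPKM in CON and 40.4, 39.1 and 41.0 in LOW (log2 difference 0.26, SE 0.11). AACS, which turns acetoacetate into a precursor of cholesterol and fatty acids, was at 12.3, 12.1 and 14.8 FPKM in CON and 10.2, 10.6 and 9.82 in LOW (-0.35, SE 0.13). It lay on the same side as the genes of cholesterol and fatty acid synthesis. DBT, a subunit of the complex that breaks down branched-chain amino acids, was at 16.2, 16.8 and 20.01 FPKM in CON and 13.6, 14.0 and 14.0 in LOW (-0.34, SE 0.13). MMP1, a collagenase, was at 2.22, 2.45 and 3.50 FPKM in CON and 1.71, 1.67 and 1.97 in LOW (-0.56, SE 0.22). LTBP2, a matrix protein related to the binding proteins of latent TGF-beta, was at 7.69, 8.76 and 7.75 FPKM in CON and 5.95, 6.96 and 6.40 in LOW (-0.32, SE 0.13).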
